A study of Mus musculus with 10 samples.

Results

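Immediate-early response genes were followed in mouse round spermatids, the haploid cells that germ cells become after meiosis, after a short heating of the testis. They were chosen by symbol, as 30 genes of the table, of the 55401 genes it holds. They are the FOS and JUN subunits of AP-1 with Atf3 and Maff, the EGR, NR4A and KLF factors with Myc, and a set of early inhibitors and growth arrest genes. The table also holds 1146 subfamilies of transposable elements (TE). In the group heated to 42 °C, 5 adult male CD1 mice, an outbred stock, lay under isoflurane with the testes against water at 42 °C for 30 minutes. In the control group at 33 °C, 5 adult male CD1 mice were treated in the same way with water at 33 °C. Every mouse in both groups was thus anaesthetised, woke up and was killed at once, and its round spermatids were then isolated. Each mouse gave 1 library of total RNA depleted of ribosomal RNA. The labels give neither the method of isolation nor the time it took, and no library from before the isolation is analysed here.

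Immediate-early genes are those that a cell switches on first after a stimulus, from transcription factors that are already present and need no new protein. Growth factor, stress and calcium signals reach them through MAP kinases and through the factors SRF with ELK1 and CREB. The products are mostly short-lived transcription factors, followed closely by inhibitors that shut the signal down again. Handling and enzymatic dissociation of tissue are known to switch on the same genes in many cell types. In the male germ line, Klf4 is known for its high level in the haploid cells.

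The promoters of the 3 members below are printed because they carry the binding letters of CREB-type factors, through which signals and, in spermatids, the CREM factor are known to act. Fos is the classical immediate-early gene, and Klf4 and Nr4a1 are abundant in these cells. Each sequence is the 250 bases before the RefSeq start, build GRCm38.p6, written 5′ to 3′ on the strand of the gene, and capitals mark TGACG or its complement CGTCA. The coordinates are chr12:85473640-85473889 on the plus strand for Fos, chr4:55532476-55532725 on the minus strand for Klf4 and chr15:101266596-101266845 on the plus strand for Nr4a1.
Fos: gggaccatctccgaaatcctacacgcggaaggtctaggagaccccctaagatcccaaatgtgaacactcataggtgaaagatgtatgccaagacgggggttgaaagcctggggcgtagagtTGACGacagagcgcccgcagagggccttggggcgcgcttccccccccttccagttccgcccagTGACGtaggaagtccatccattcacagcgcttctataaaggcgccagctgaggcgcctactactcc
Klf4: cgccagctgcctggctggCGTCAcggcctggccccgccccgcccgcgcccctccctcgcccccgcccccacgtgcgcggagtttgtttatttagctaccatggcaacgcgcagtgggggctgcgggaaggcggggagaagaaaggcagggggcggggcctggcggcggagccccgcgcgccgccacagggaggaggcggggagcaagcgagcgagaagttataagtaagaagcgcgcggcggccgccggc
Nr4a1: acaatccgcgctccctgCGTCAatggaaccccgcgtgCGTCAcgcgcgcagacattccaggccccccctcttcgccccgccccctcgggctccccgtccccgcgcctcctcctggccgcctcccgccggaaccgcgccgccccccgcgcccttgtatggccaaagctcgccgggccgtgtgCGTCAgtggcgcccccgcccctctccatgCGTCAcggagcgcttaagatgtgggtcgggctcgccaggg

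The Fos promoter had TGACG 2 times, and in Klf4 the letters stood 1 time, as CGTCA. The Nr4a1 promoter had 4 copies, all as CGTCA. RefSeq promoters were found for 25 of the 30 members, and not for Egr1, Egr3, Fosl1, Ier2 and Myc. Egr2 had 5 entries and Maff 3, and the first was used. The Jund window, chr8:70697489-70697738, does not adjoin the Jund gene as counted here, which starts at base 70698949. The windows of Nr4a1, Dusp1 and Atf3 lie inside the counted genes, far from their starts. On their strands these genes start at bases 101254269, 26562128 and 191218039. The windows for Dusp1 and Atf3 begin at chr17:26508473 and chr1:191183334. Those of Fosl2, Zfp36 and Socs3 also lie inside the counted genes, nearer the start. Searched on both strands, TGACG was present in 12 of these 25, or 48.0%, against 17.9% of all 27025 promoters of that length. The palindrome TGACGTCA, which contains TGACG, stood in Btg2 and Dusp1, 2 of 25, against 1.62% of all promoters. The EGR letters GCGNGGGCG were present in 11 of 25, or 44.0%, against 4.65% of all. The GC box GGGCGG was present in 20 of 25, or 80.0%, against 32.9% of all, and it can overlap an EGR match. The AP-1 letters TGANTCA were in none of the 25 windows, against 6.87% of all promoters, and the CArG box of SRF was in 1, that of Zfp36, against 1.40%. The pair GAANNTTC, part of the element that heat shock factors bind, stood in Fosl2 and Jun, 2 of 25, against 6.78% of all. A match is a description of the letters in this window and not of binding. Sites farther from the start, and the members with no promoter entry, were not searched.

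The values are reads counted per gene, given as CPM, the count scaled to a common library size with the factor TMM, which sets most features equal between libraries. Changes are log2 ratios of 42 °C over 33 °C, fitted by edgeR. Total counts ran from 60623568 to 102086073 in the 42 °C libraries and from 92311183 to 117723075 in the 33 °C libraries. All 19 round spermatid markers averaged above 1 CPM, led by Zpbp2, Acr and Zpbp, and their sum ran from 2143 to 3208 CPM at 42 °C and from 1873 to 3040 CPM at 33 °C. Markers of elongating spermatids summed to between 4621 and 10279 CPM at 42 °C and between 5009 and 7545 CPM at 33 °C, and those of spermatocytes to between 830 and 1138 CPM at 42 °C and between 1033 and 1358 CPM at 33 °C. Somatic markers were far lower, and their values stand beside the results they move with. In 42 °C replicate 2, which had the lowest total, 16.2% of the counts lay on TE. In bulk RNA of this kind, fewer cells of a type and less RNA per cell cannot be told apart.

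Per length, a few of the members dominated. Klf4, a zinc finger factor known from pluripotent cells and spermatids, had an RPKM of 77.9 over all 10 libraries, which is its count scaled to exon length and library size, more than 96.8% of the tested genes. Klf2, its close relative known from endothelium and T cells, had 29.4 on the same scale, and the orphan nuclear receptor Nr4a1 had 14.6. The broadly expressed AP-1 subunit Jund followed with 12.5, Egr3 with 8.46 and Ier5 with 4.63. The lowest Klf4 library, at 51.3, lay above the highest Klf2 library, at 38.0, and the lowest Klf2 library, at 20.6, just above the highest Nr4a1 library, at 20.3. The lowest Ier5 library, at 4.10, lay above the highest Dusp1 library, at 3.68, and all other neighbours in the order overlapped between libraries. Dusp1 had 2.54, Fosl1 2.38, Junb 1.60 and Jun 1.46 on this scale, and Egr1 had 0.884. The classical Fos came only at place 15 of 30, with 0.342, above 27.1% of the tested genes. The 9 lowest members ran from Ier3 at 0.122 to Egr2 at 0.0048.

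**Figure D1:**
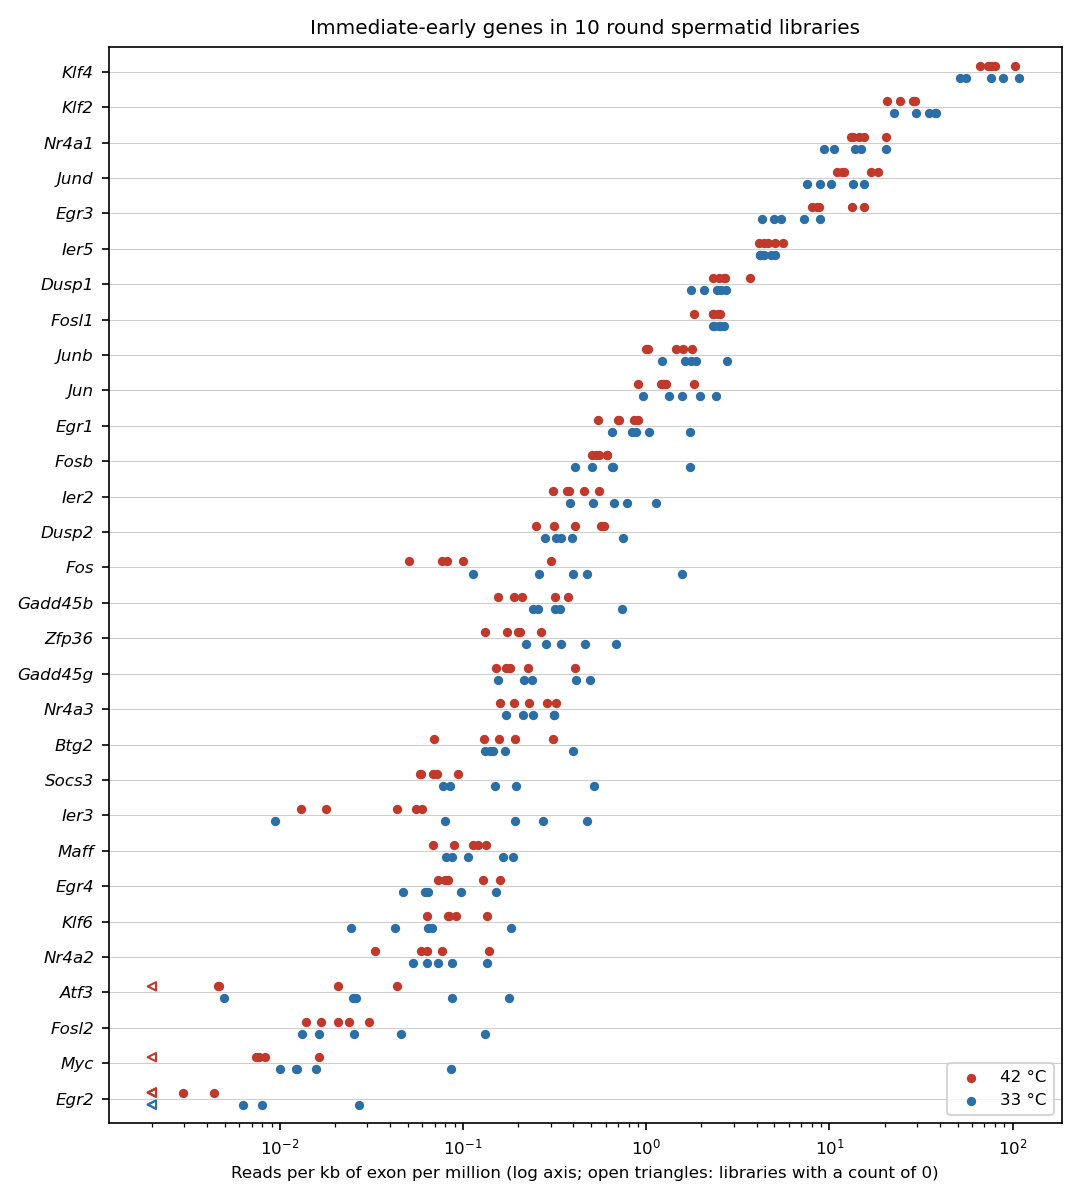
Level of each of the 30 immediate-early genes in RPKM, reads scaled to exon length and library size (log axis), 1 point per library, 42 °C above 33 °C in each row, ordered by the mean over 10 libraries. Klf4 leads with 77.9 and Egr2 is lowest with 0.0048, and the 2 groups overlap in every gene.

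Within 6 families 1 member made up most of the mean level per length, and it was the same one in both groups, while Gadd45b and Gadd45g were about even. Of the 7 FOS and JUN genes together, Jund held 70.6% ± 5.62 at 42 °C and 59.8% ± 7.05 at 33 °C (SD, 5 mice each). Fos held 0.582% ± 0.374 at 42 °C and 2.69% ± 1.99 at 33 °C. Of the EGR genes, Egr3 held 92.1% ± 2.75 at 42 °C and 84.4% ± 4.54 at 33 °C, and Egr1 6.92% ± 2.61 at 42 °C and 14.3% ± 3.99 at 33 °C. The groups overlapped in each of these shares. Nr4a1 held 98.0% of the NR4A level at 42 °C and 97.5% at 33 °C. Klf4 held 75.1% of the level of the 3 KLF members at 42 °C and 69.4% at 33 °C. Ier5 held 91.2% of the IER level at 42 °C and 83.6% at 33 °C, and Dusp1 86.9% of the DUSP level at 42 °C and 85.0% at 33 °C.

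**Figure D2:**
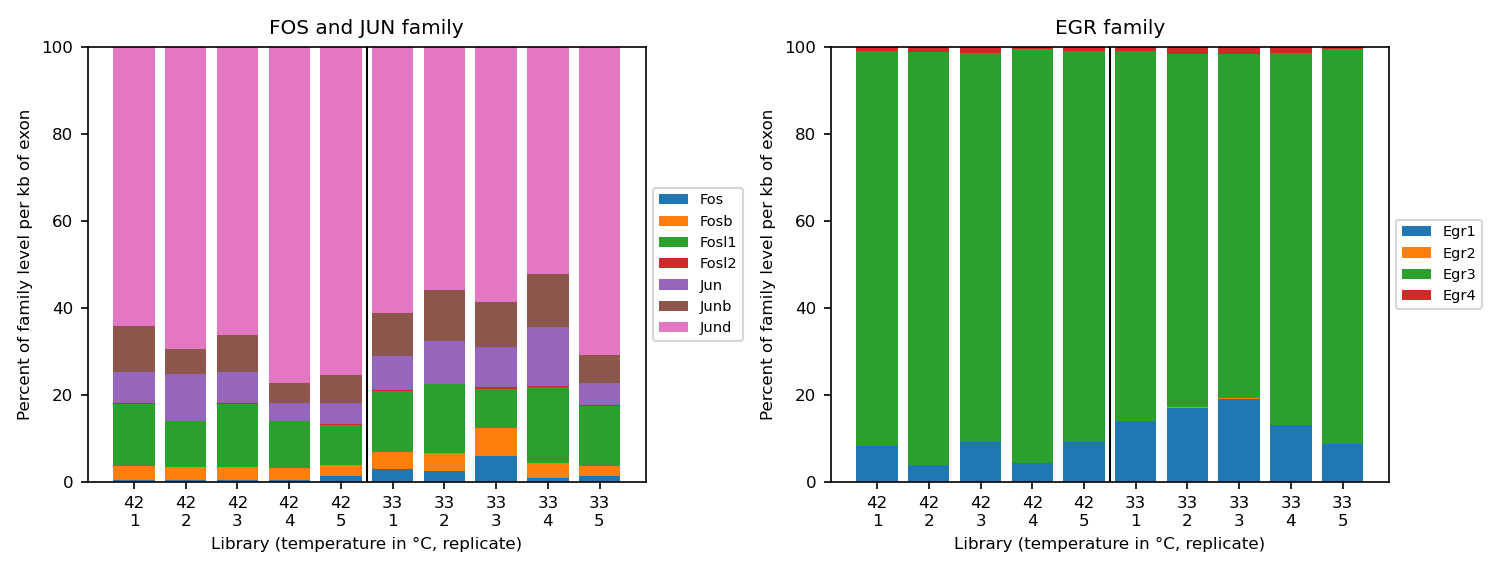
Share of each gene in the summed level per kb of exon of its family, in percent, for the FOS and JUN genes (left) and the EGR genes (right), 1 bar per library with the 5 libraries at 42 °C left of the line and the 5 at 33 °C right of it. Jund runs from 64.3% to 77.2% at 42 °C and from 52.2% to 70.9% at 33 °C, and Egr3 from 89.5% to 95.2% at 42 °C and from 79.1% to 90.9% at 33 °C.

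The comparison of 42 °C with 33 °C asks whether the heating left a trace in these genes. With the quasi-likelihood test of edgeR over 26025 features and Benjamini-Hochberg adjustment, none of the 26 members with enough reads to be tested passed an adjusted p of 0.05. Over all features 24, or 0.0922%, passed, 0.0884% higher and 0.00384% lower at 42 °C. At an unadjusted p under 0.05, 1 member was higher at 42 °C, Egr3, where 8.56% of all features were. At the same level 4 members were lower, Fos, Zfp36, Socs3 and Ier2, where 2.94% of all features were. By limma voom no member passed the adjusted threshold, against 0.588% of all features. By DESeq2 1 did, Fos, against 1.02% of its 33968 features with an adjusted p. In no member did the 5 libraries of one group all lie above those of the other, while 1.32% of all features were apart with 42 °C higher and 0.680% with 42 °C lower. Of the 26, 17 had a negative log2 ratio, against 51.1% of all features, and their median was -0.23, against -0.01 over all features.

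**Figure D3:**
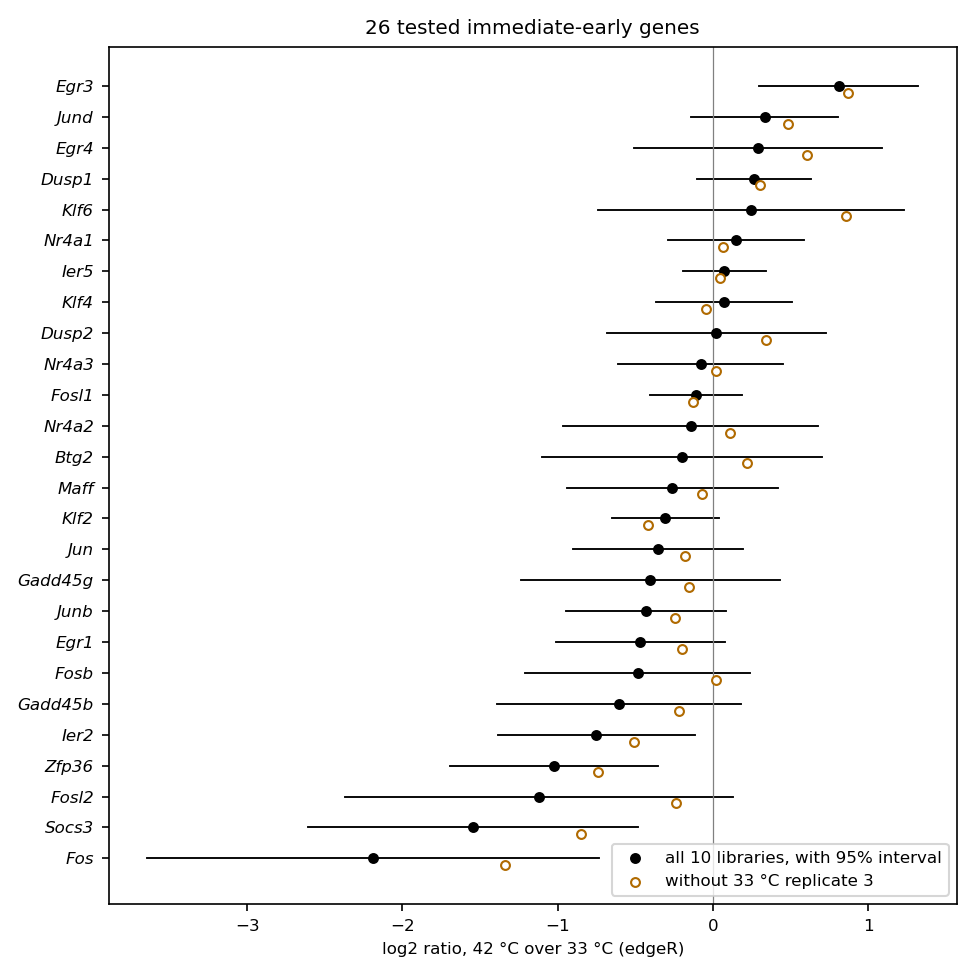
Log2 ratio of 42 °C over 33 °C (edgeR) of the 26 tested immediate-early genes, with 95% intervals from all 10 libraries (filled) and the value without 33 °C replicate 3 (open). Egr3 is highest at 0.81 and Fos lowest at -2.19, where the value without that library is -1.34.

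Among the AP-1 subunits, which pair through leucine zippers and bind DNA as dimers, 7 of 8 tested members had a negative log2 ratio and none passed. Fos, whose protein needs a JUN partner, is ENSMUSG00000021250 at chr12:85473890-85477273 on the plus strand. It had 0.181, 0.193, 0.119, 0.235 and 0.711 CPM in 42 °C replicates 1 to 5, against 1.11, 0.941, 3.67, 0.267 and 0.608 CPM in 33 °C replicates 1 to 5. Replicate 5 was the high library at 42 °C and replicate 3 at 33 °C, and the groups overlapped through 42 °C replicate 5 and 33 °C replicates 4 and 5. The reads behind these levels were 12 to 68 per library at 42 °C and 25 to 362 at 33 °C. The log2 ratio was -2.19 with an SE of 0.67 and an adjusted p of 0.359 in edgeR, a level at 42 °C of 0.219 times that at 33 °C with a 95% interval of 0.080 to 0.602. DESeq2 gave -2.16 with an adjusted p of 0.0350. Without 33 °C replicate 3 the edgeR value was -1.34 with an adjusted p of 0.342.

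Jund, the most abundant of the subunits, is ENSMUSG00000071076 at chr8:70698949-70700616 on the plus strand. It had 18.3, 19.96, 19.4, 28.1 and 30.8 CPM in 42 °C replicates 1 to 5, against 16.9, 14.8, 25.8, 12.5 and 22.4 CPM in 33 °C replicates 1 to 5. It was the only tested AP-1 member with a positive log2 ratio, 0.33 with an SE of 0.22 and an adjusted p of 0.518 in edgeR, and 33 °C replicates 3 and 5 lay above the 3 lower libraries at 42 °C. Fosb, which like Fos needs a JUN partner, ran from 3.16 to 3.83 CPM at 42 °C and from 2.54 to 10.8 CPM at 33 °C, with the single high value again in 33 °C replicate 3. Fosl2, or FRA-2, ran from 0.134 to 0.297 CPM at 42 °C, against 0.128 to 1.28 CPM at 33 °C. Its log2 ratio was -1.12 with an SE of 0.58 and became -0.23 without that library. Jun and Junb averaged 4.10 ± 1.08 and 3.14 ± 0.798 CPM at 42 °C and 5.24 ± 1.78 and 4.24 ± 1.29 CPM at 33 °C (SD, 5 mice each), a difference below the spread at 33 °C. Fosl1, or FRA-1, ran from 3.69 to 5.16 CPM at 42 °C and from 4.73 to 5.39 CPM at 33 °C. Maff, a small MAF protein with no activation domain, had at most 0.347 CPM at 42 °C and 0.487 CPM at 33 °C. Jun overlaps the antisense gene Junos, Jund overlaps Gm11175 and Fosl1 overlaps Ccdc85b on the opposite strand. Since the strand setting of the counting is not given in the sources used here, the reads of such pairs may be mixed.

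Among the zinc finger, nuclear receptor and MYC factors, 5 of 9 tested members had a positive log2 ratio, with a median of 0.07. Egr3, a zinc finger factor known from lymphocytes and muscle spindles, is ENSMUSG00000033730 at chr14:70077203-70082614 on the plus strand. It had 35.3, 58.4, 38.5, 67.7 and 37.5 CPM in 42 °C replicates 1 to 5, against 23.9, 21.8, 31.8, 18.9 and 39.0 CPM in 33 °C replicates 1 to 5. Replicates 2 and 4 were high at 42 °C, and 33 °C replicate 5 alone reached into the 42 °C range, above 42 °C replicates 1, 3 and 5. The log2 ratio was 0.81 with an SE of 0.24, which is 1.75-fold with a 95% interval of 1.23 to 2.50, and the adjusted p was 0.347 in edgeR. The adjusted p was 0.0642 in limma voom and 0.0899 in DESeq2, and over all alternatives the log2 ratio stayed between 0.65 and 1.02. These levels rested on 1768 to 6047 reads per library, so counting error was small beside the spread between mice. The nearest gene that ends upstream on the same strand, Pebp4, lies 17285 bases away. Pebp4 averaged 205 ± 35.0 CPM at 42 °C, against 223 ± 17.8 CPM at 33 °C (SD, 5 mice each). Its log2 ratio was -0.12 with an SE of 0.13 and an adjusted p of 0.679 in edgeR. Of the round and elongating spermatid markers, 16 of 19 and 11 of 12 had positive log2 ratios, with medians of 0.29 and 0.36. Of the spermatocyte markers 3 of 15 did, with a median of -0.15. The part of the cell makeup in the Egr3 levels was not tested.

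The other EGR genes did not share the direction of Egr3 in full. Egr1, the best known member and an early target of SRF, ran from 2.43 to 4.02 CPM at 42 °C and from 2.91 to 7.76 CPM at 33 °C. Its log2 ratio was -0.47 with an SE of 0.25 and an adjusted p of 0.473 in edgeR. Egr4 had at most 0.341 CPM at 42 °C, against 0.325 CPM at 33 °C, and a log2 ratio of 0.29 and an SE of 0.37. The difference between Egr3 and its relatives was not tested.

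Klf4 is ENSMUSG00000003032 at chr4:55527143-55532466 on the minus strand. It had 233, 202, 244, 315 and 225 CPM in 42 °C replicates 1 to 5, against 232, 271, 156, 171 and 329 CPM in 33 °C replicates 1 to 5. The groups overlapped almost wholly, and the log2 ratio was 0.07 with a 95% interval of -0.36 to 0.51 in edgeR. The libraries highest in Klf4, 42 °C replicate 4 and 33 °C replicate 5, were also highest in the sum of the round spermatid markers, at 3208 and 3040 CPM. Those lowest in Klf4, 33 °C replicates 3 and 4, were also lowest in that sum, at 1876 and 1873 CPM. The part of the cell makeup in these levels was not tested.

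Nr4a1, also called NUR77, is ENSMUSG00000023034 at chr15:101254269-101274795 on the plus strand. It had 46.0, 47.0, 53.9, 71.0 and 50.6 CPM in 42 °C replicates 1 to 5, against 48.6, 52.4, 37.1, 32.9 and 71.1 CPM in 33 °C replicates 1 to 5. Its highest and lowest libraries were those of Klf4, and the log2 ratio was 0.15 with an SE of 0.20. Klf2 is ENSMUSG00000055148 at chr8:72319033-72321656 on the plus strand. It had 53.2, 38.0, 53.9, 52.9 and 44.99 CPM in 42 °C replicates 1 to 5, against 64.8, 69.4, 41.5, 54.7 and 70.2 CPM in 33 °C replicates 1 to 5. Here 4 of 5 libraries at 33 °C lay above all 5 at 42 °C, and 33 °C replicate 3 did not. The log2 ratio of Klf2 was -0.31 with an SE of 0.16 and an adjusted p of 0.467 in edgeR, and -0.42 with an adjusted p of 0.299 without that library. Klf6, a widely expressed relative, ran from 0.277 to 0.593 CPM at 42 °C and from 0.107 to 0.801 CPM at 33 °C. Its log2 ratio of 0.25 became 0.86 without 33 °C replicate 3, where its unadjusted edgeR p was 0.0313. Nr4a2 and Nr4a3, the other NUR77-type receptors, had at most 0.565 and 1.91 CPM at 42 °C and 0.548 and 1.89 CPM at 33 °C.

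**Figure D4:**
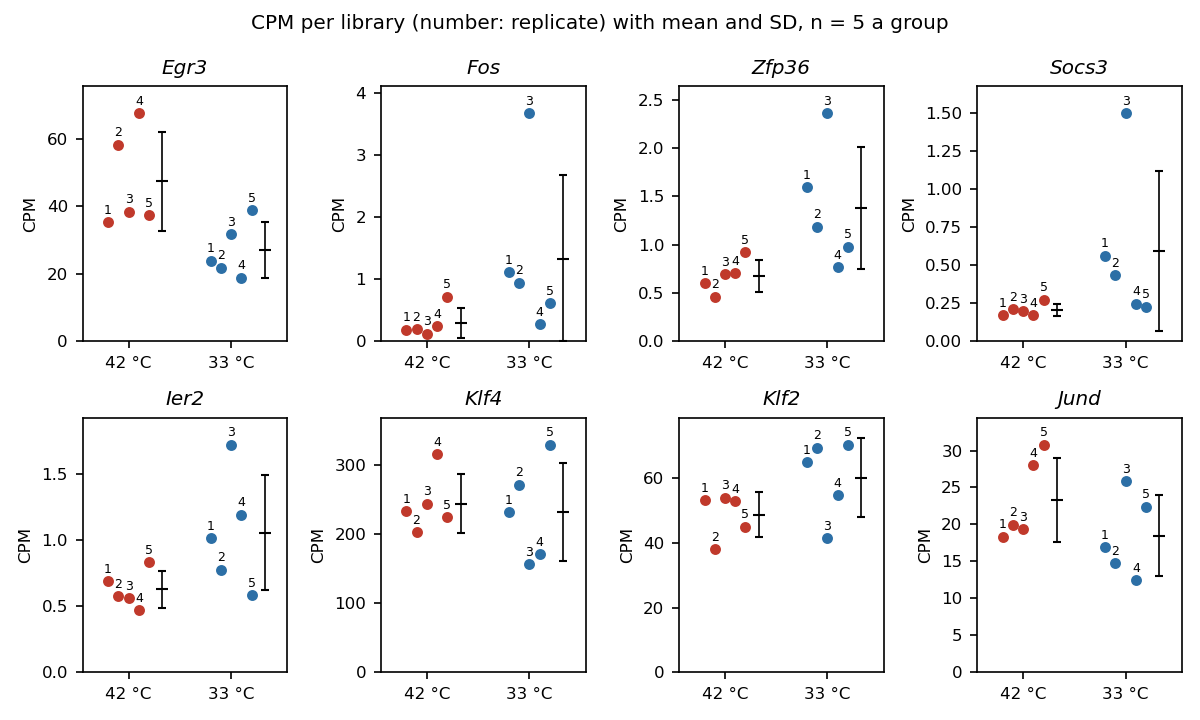
CPM of 8 immediate-early genes in each library, with the replicate number above each point and the mean and SD beside each group (n = 5 each, 42 °C left of 33 °C, error bars stop at 0). Egr3 is higher at 42 °C in most libraries, and Fos, Zfp36, Socs3 and Ier2 share their highest value in 33 °C replicate 3.

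Among the early inhibitors and growth arrest genes, 6 of 9 tested members had a negative log2 ratio, with a median of -0.40. Zfp36, or tristetraprolin, binds AU-rich elements and speeds the decay of early mRNAs, and is ENSMUSG00000044786 at chr7:28376784-28380253 on the minus strand. It had 0.602, 0.459, 0.693, 0.705 and 0.921 CPM in 42 °C replicates 1 to 5, against 1.60, 1.19, 2.36, 0.768 and 0.980 CPM in 33 °C replicates 1 to 5. Only 42 °C replicate 5 lay above any library at 33 °C, replicate 4. The log2 ratio was -1.02 with an SE of 0.31 and an adjusted p of 0.350 in edgeR, and -0.74 with an adjusted p of 0.318 without 33 °C replicate 3. Zfp36 overlaps the antisense gene Gm44710, which averaged 4.11 ± 1.17 CPM at 42 °C, against 2.94 ± 1.02 CPM at 33 °C (SD, 5 mice each), a log2 ratio of 0.48 with an adjusted p of 0.463 in edgeR.

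Socs3, which blocks JAK and STAT signalling, is ENSMUSG00000053113 at chr11:117966079-117970047 on the minus strand. It had 0.171, 0.207, 0.198, 0.168 and 0.272 CPM in 42 °C replicates 1 to 5, against 0.562, 0.434, 1.50, 0.245 and 0.225 CPM in 33 °C replicates 1 to 5. The 42 °C libraries were close together and 33 °C replicates 1, 2 and 3 stood above them. The log2 ratio was -1.54 with an SE of 0.49 and an adjusted p of 0.369 in edgeR, and -0.85 with an adjusted p of 0.334 without 33 °C replicate 3. Ier2, a nuclear protein of the early response, is ENSMUSG00000053560 at chr8:84661331-84662854 on the minus strand. It had 0.692, 0.578, 0.565, 0.470 and 0.837 CPM in 42 °C replicates 1 to 5, against 1.01, 0.778, 1.72, 1.19 and 0.586 CPM in 33 °C replicates 1 to 5. The groups overlapped through 42 °C replicates 1 and 5 and 33 °C replicates 2 and 5, and the log2 ratio was -0.75 with an SE of 0.29 and an adjusted p of 0.397 in edgeR.

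Ier5, known in human cells as a regulator of the heat shock factor HSF1, is ENSMUSG00000056708 at chr1:155096361-155099636 on the minus strand. It had 16.5, 18.3, 14.4, 15.1 and 13.4 CPM in 42 °C replicates 1 to 5, against 14.3, 16.4, 13.7, 15.7 and 13.8 CPM in 33 °C replicates 1 to 5. The groups overlapped almost wholly, and the log2 ratio of 0.07 had a 95% interval of -0.19 to 0.34 in edgeR. Dusp1, a phosphatase of MAP kinases, averaged 9.18 ± 1.76 CPM at 42 °C, against 7.64 ± 1.29 CPM at 33 °C (SD, 5 mice each), and its log2 ratio was 0.26 with an SE of 0.17. Exons of Dusp1 overlap those of Ergic1 on the other strand, which had a log2 ratio of 0.26 as well. Dusp2, a nuclear MAP kinase phosphatase, and Btg2, an antiproliferative partner of deadenylases, differed little in mean, at 0.849 and 0.470 CPM at 42 °C and 0.835 and 0.539 CPM at 33 °C. Gadd45b and Gadd45g, stress sensors upstream of p38 and JNK, averaged 0.396 and 0.268 CPM at 42 °C and 0.6003 and 0.355 CPM at 33 °C, and neither passed at an unadjusted p under 0.05.

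The other 4 members had too few reads to be tested, and in each the highest library was 33 °C replicate 3. Ier3, an early survival gene, had 2, 1, 5, 6 and 6 reads in 42 °C replicates 1 to 5, against 28, 24, 53, 1 and 8 reads in 33 °C replicates 1 to 5. Atf3, a stress-induced partner and repressor of AP-1, had 1, 0, 1, 4 and 9 reads at 42 °C, against 17, 6, 38, 1 and 5 reads at 33 °C. In both genes 33 °C replicate 4 was as low as the 42 °C libraries. Myc, the growth factor-induced regulator of cell growth, had 0 to 3 reads at 42 °C, against 3 to 23 reads at 33 °C, and Egr2 had 0 or 1 read at 42 °C, against 0 to 9 reads at 33 °C. At these depths a count of 0 allows a level of up to 0.0445 CPM in 42 °C replicate 2 and up to 0.0338 CPM in 33 °C replicate 5, for counting error only. With no filter on low counts edgeR gave Ier3 a log2 ratio of -2.33 with an adjusted p of 0.222, and DESeq2 gave it an adjusted p of 0.0876.

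One control library, 33 °C replicate 3, held the highest value of 15 of the 26 tested members and of 19 of all 30, where it held the highest value of 10.0% of all features tested. Within the 33 °C group it was highest for 19 of the 26, or 73.1%, against 28.6% of all features. Markers of Leydig cells, the steroid-producing cells between the tubules, were also high in that library. Without Fdx1 and Ldhd, which were set aside after their values were seen, the other 10 summed to 3.18 to 8.35 CPM at 42 °C, against 20.5 CPM in 33 °C replicate 3 and 3.22 to 4.94 CPM in the other libraries at 33 °C. Of these markers Cyp17a1 had at most 2.53 CPM and Insl3 at most 2.16 CPM at 42 °C, against 6.31 and 5.84 CPM in 33 °C replicate 3. Over all 12 Leydig markers, none was at 0 in every library, and the sum ran from 17.8 to 25.97 CPM at 42 °C and from 21.3 to 40.0 CPM at 33 °C. Among the 42 °C libraries the Leydig sum of 8.35 CPM was highest in replicate 5, which was also the highest of its group for Fos, Zfp36, Socs3 and Ier2. Markers of other cell types were compared gene by gene in the same way. Of the markers with enough reads to be tested, 33 °C replicate 3 was the highest control library for 12 of 14 of Sertoli cells, the nurse cells of the tubule, 8 of 10 of Leydig cells and 9 of 14 of peritubular and stromal cells. The same held for 7 of 13 of leukocytes, 5 of 11 of endothelium, both of erythroid cells, 5 of 12 of spermatogonia, 5 of 12 of elongating spermatids, 2 of 15 of spermatocytes and 0 of 19 of round spermatids. Within the 42 °C group, replicate 5 was highest for 11 of the 26 members, or 42.3%, against 13.6% of all features. It was also highest there for 11 of 14 Sertoli, 8 of 10 Leydig, 8 of 14 peritubular and stromal and 7 of 12 elongating spermatid markers. Sparc, a matrix protein of stromal cells, was one of these, with 6.42 CPM in 42 °C replicate 5 and 6.93 CPM in 33 °C replicate 3. The elongating spermatid sum was highest in the same libraries of each group, at 10279 CPM in 42 °C replicate 5 and 7545 CPM in 33 °C replicate 3. The Sertoli sum was not, at 150 CPM in 42 °C replicate 5 and 113 CPM in 33 °C replicate 3, against highest values of 172 and 175 CPM. That sum was mostly Tjp1, which alone had 130 CPM in 42 °C replicate 5 and 96.1 CPM in 33 °C replicate 3, so it says little of the other Sertoli markers. The part of any of these cells in the levels of the members was not tested.

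**Figure D5:**
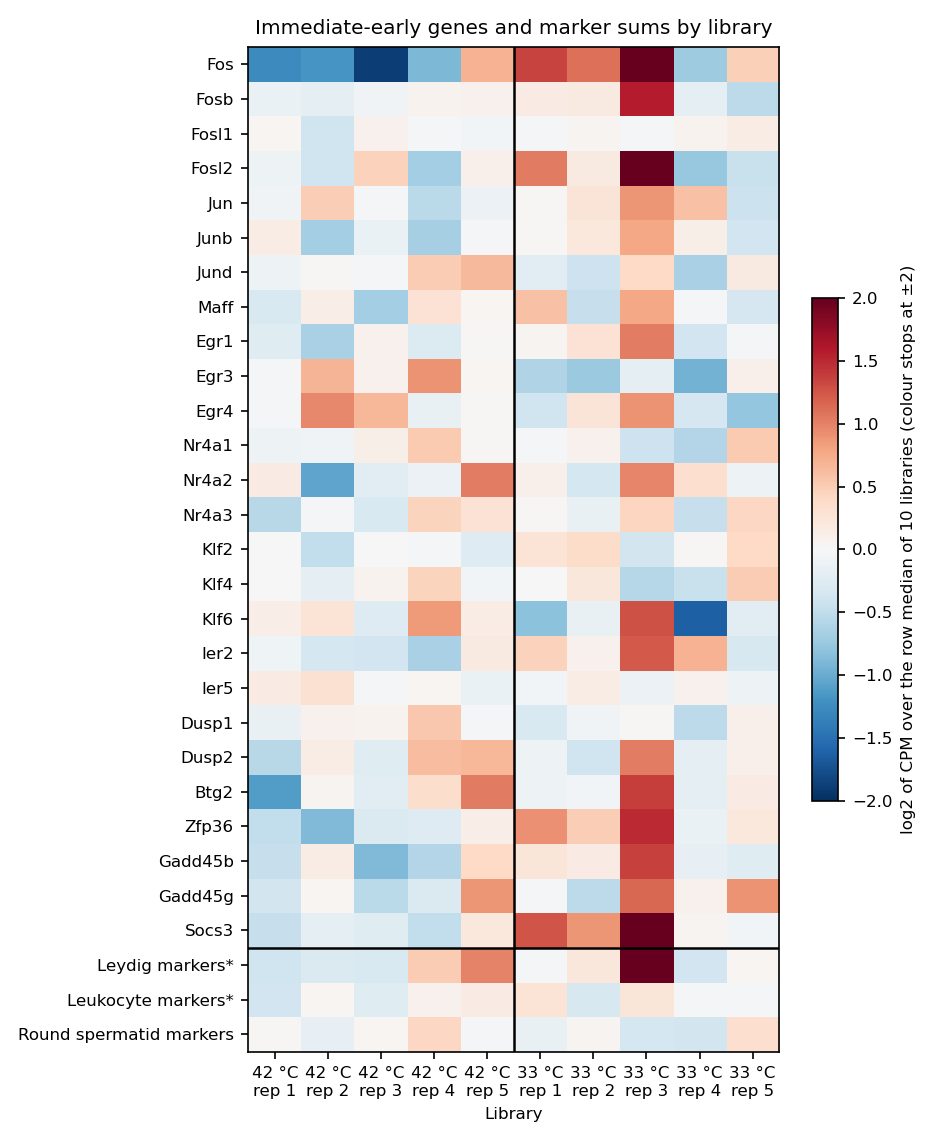
Log2 of the CPM of each tested immediate-early gene, and of 3 marker sums, over its median of 10 libraries, with 42 °C libraries left of the line (the Leydig sum is without Fdx1 and Ldhd and the leukocyte sum without Fcgr3). The column of 33 °C replicate 3 is high for most rows and for the Leydig markers, and Egr3, Klf2, Klf4 and Nr4a1 are among the exceptions.

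Without 33 °C replicate 3, no member passed the adjusted threshold in edgeR either. At an unadjusted p under 0.05, 3 members were then higher at 42 °C, Egr3, Jund and Klf6, against 10.1% of all features. As many as 4 were lower, Fos, Zfp36, Socs3 and Klf2, against 2.87% of all features. Ier2 was no longer among them, and the log2 ratios of Fos, Zfp36 and Socs3 kept their sign.

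The leukocyte markers gave a second set of values beside the members. Fcgr3 was set aside after its values were seen. The 19 others summed to between 9.16 and 13.3 CPM at 42 °C and between 9.56 and 14.3 CPM at 33 °C. The largest of these 19 was Adgre1, with a mean of 5.05 CPM. S100a8 and S100a9, which define neutrophils, were at 0 in every library. Fcgr3 alone ran from 38.3 to 66.3 CPM at 42 °C, against 71.1 to 91.0 CPM at 33 °C. Its log2 ratio was -0.68 with an adjusted p of 0.209 in edgeR. The sum of all 20 was therefore mostly Fcgr3, with 50.5 to 79.6 CPM at 42 °C and 82.6 to 101.7 CPM at 33 °C. It thus says little of the other leukocyte markers. Over the 10 libraries the 26 tested members were set against this sum and against the sum of all 5 somatic lists, which makes 52 relations. The somatic sum also rested mostly on a few genes, Tjp1, Fcgr3 and Mylk, with means of 133, 65.3 and 53.6 CPM. It is thus a weak measure of the other somatic markers. Egr3 against the leukocyte sum passed by Pearson's r, at -0.90 with a permutation p of 0.00035 and an adjusted p of 0.0182. By Spearman's rho it was -0.89 with a permutation p of 0.00116 and an adjusted p of 0.0603, and none of the 52 passed. The groups did not overlap in the sum, so the relation and the group difference cannot be told apart in the pooled value. With values centred on each group's mean r was -0.78, with an adjusted permutation p of 0.335. Without the 2 libraries farthest from the median of the sum r was -0.76, with an adjusted p of 0.879 by the exact permutation test. The adjusted call was thus lost, but fewer libraries also weaken the test, so this does not show that it rested on those 2. Leaving out 1 of 5 single libraries, replicates 2, 3 and 4 at 42 °C and replicates 2 and 4 at 33 °C, also ended the call, with adjusted permutation p-values up to 0.151. A rho of at least 0.8 with the leukocyte sum was found for 1 of the 26 members, Ier2, and for 2.66% of all features. Relations of the members with the leukocyte markers other than Fcgr3 were not tested.

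The genes around the members in the pathway were read in the same edgeR test, and none of them passed. All 32 upstream kinases and factors were tested. At an unadjusted p under 0.05, 2 were higher at 42 °C and 1 lower, against 8.56% and 2.94% of all features. Rps6ka1, an ERK-activated kinase, averaged 54.7 ± 13.9 CPM at 42 °C and 35.8 ± 11.2 CPM at 33 °C (SD, 5 mice each), a log2 ratio of 0.61 with an adjusted p of 0.386. Mapk9, or JNK2, had a log2 ratio of -1.69 that came from 1 library, with 3.63 to 4.19 CPM at 42 °C and 3.76 to 47.0 CPM at 33 °C. Mrtfb, a coactivator of SRF, had a log2 ratio of 0.57 with an adjusted p of 0.435. The CREB-type factors Crem, Atf1 and Creb1 differed widely in level, with Crem highest and Creb1 lowest. Mean CPM of Crem was 221 ± 21.02 at 42 °C, against 224 ± 35.4 at 33 °C (SD, 5 mice each). For Atf1 these means were 103 ± 10.8 and 111 ± 6.58, and for Creb1 only 17.2 ± 2.19 and 19.9 ± 2.02, in the same order.

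Of 51 other early response genes, 38 were tested. At an unadjusted p under 0.05, 2 were higher at 42 °C and 3 lower, against 8.56% and 2.94% of all features. Phlda1, a pleckstrin-homology protein, averaged 0.318 ± 0.159 CPM at 42 °C and 0.118 ± 0.0611 CPM at 33 °C (SD, 5 mice each), a log2 ratio of 1.40 with an adjusted p of 0.364 in edgeR. Id2, an inhibitor of helix-loop-helix factors, had -1.29 with an adjusted p of 0.386, and Csrnp1, an AXUD1-type nuclear protein, 0.47 with an adjusted p of 0.393. Of 37 other bZIP factors and partners, 33 were tested, with 4 higher and 1 lower, against the same shares of all features. Socs1, a relative of Socs3, averaged 3.35 ± 1.15 CPM at 42 °C and 1.69 ± 0.373 CPM at 33 °C (SD, 5 mice each). Its log2 ratio of 0.99 had an adjusted p of 0.263 in edgeR, opposite in sign to the -1.54 of Socs3, and in DESeq2 it was 1.00 with an adjusted p of 0.0175. Klf13 and Dusp3, relatives of KLF and DUSP members, had log2 ratios of -0.50 and 0.78 with adjusted p-values of 0.369 and 0.386 in edgeR.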

How the data were processed

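Reads of total RNA from isolated round spermatids were analysed as 1 table of raw read counts that the authors deposited, with no normalization, for genes and TE subfamilies. All values were whole numbers and column sums were unequal, which is why they were taken as counts. Per the submitters' processing notes the tools were DRAGEN, cutadapt and Trim Galore, and the builds mm10 and GRCm38. Which program counted the reads, whether it used the strand, and how it treated reads that align to several places is not given in the sources used here, so overlapping genes may share reads.

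The counts were tested with edgeR 4.0.16 (glmQLFit and glmQLFTest) in R 4.3.3, with group as the sole term, TMM over genes and TE together and filterByExpr at a minimum count of 10 and a minimum total of 15. This kept 24948 genes and 1077 TE subfamilies, and p-values were adjusted over all of them by the method of Benjamini and Hochberg, with a threshold of 0.05. The tests were first tested on simulated data. Alternatives used DESeq2 1.42.0, limma 3.58.1 (voom with quality weights), other scalings and filters, a replicate block and each library left out. Levels per length use the union of exons in GENCODE M21, whose positions equal the table's for 28 of the 30 members. Correlations used log2 CPM with a pseudocount of 0.1 and 100000 resamples, two-sided, or all permutations for 9 libraries or fewer.

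The members and all lists were chosen with earlier results of these data known. Full values are given for Egr3, for members with an unadjusted p under 0.05, for the 6 highest per length and for the smallest p of each of the 3 role groups, and the other members by range. Of each related list up to 3 genes of smallest p are named. Crem, Atf1 and Creb1, and members named for a single library, were chosen after their values were seen. Each library is 1 mouse, so p-values measure the spread between mice. No pair of libraries was alike within sampling noise.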

Additional observations from a re-analysis of the deposited data

Results flagged for a closer look

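In each group of 5 libraries, a value was singled out when its gap to the nearest other was more than 0.71 of the group's range. For independent, normally distributed values, chance singles out about 1 in 20 groups of values, and 80 groups of values were examined. These groups share the same 10 libraries and CPM can be skewed, so that rate need not hold here. Of the 11 member values found, 2 were the highest at 42 °C, Fos in replicate 5 at 0.711 CPM and Dusp1 in replicate 4 at 12.2 CPM. The other 9 were the highest of the control group, all in 33 °C replicate 3. They were Fos at 3.67 CPM, Fosb at 10.8 CPM, Fosl2 at 1.28 CPM and Klf6 at 0.801 CPM, and Myc at 0.233 CPM from 23 reads. Among them too were Dusp2 at 1.50 CPM, Btg2 at 1.09 CPM, Gadd45b at 1.17 CPM and Socs3 at 1.50 CPM.

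Among the marker sums, 42 °C replicate 4 was lowest of its group for peritubular and stromal cells at 79.5 CPM. In the control group 33 °C replicate 3 was highest for Leydig cells at 40.0 CPM, for erythroid cells at 1.00 CPM and for spermatogonia at 29.2 CPM. What these values share was not tested.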

How the results depend on the processing

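Of 482 log2 ratios of the 26 tested members under the alternatives, 461 kept their direction, and the 3 other scalings reversed none. With 1 library left out, or 33 °C replicate 3 and 42 °C replicate 2 together, 6 members took both signs: Fosb (-0.61 to 0.095), Nr4a2 (-0.49 to 0.32), Nr4a3 (-0.21 to 0.062), Klf4 (-0.042 to 0.27), Btg2 (-0.52 to 0.28) and Dusp2 (-0.12 to 0.39, and -0.040 in limma voom). The fit without both libraries was chosen after seeing the data.

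Members called were 1 with DESeq2 and 0 under every other alternative. All genes called, against 24 as reported, were 76 with no filter, 2 at a mean of at least 1 CPM, 347 with DESeq2, 153 with limma voom, 4 with the replicate block and 12 to 22 with 1 library left out. Higher at 42 °C were 15 with library totals, 73 with no filter, 2 at 1 CPM, 306 with DESeq2, 124 with limma voom, 4 with the block and 10 to 21 with 1 library left out. Lower were 3 with no filter, 0 at 1 CPM, 41 with DESeq2, 29 with limma voom, 0 with the block, 0 without both libraries and 0 to 2 with 1 library left out. Members at an unadjusted p under 0.05 were 5 of 26 as reported, against 11.5% of all features in the same fit. They were 8 of 30 with no filter (10.2% of all features), 2 of 14 at 1 CPM (11.6%), 9 of 30 with DESeq2 (8.52%), 4 of 26 with the replicate block (6.70%) and 4 to 7 of 26 with 1 library left out (5.90% to 18.9%). Of these, higher were 1 to 3 with 1 library left out (4.51% to 15.1%) and 3 without both libraries (9.97%). Lower were 7 with no filter (1.34%), 1 at 1 CPM (3.04%), 8 with DESeq2 (1.77%) and 3 to 6 with 1 library left out (1.19% to 4.34%). Besides Socs1, DESeq2 called 1 other early response gene, Bhlhe40 (-3.17, adjusted p 0.00935). With 1 library left out, 0 to 3 of the 30 members did not overlap between groups, against 2.22% to 9.57% of all features tested, and 2.00% with all libraries. They were Fos, Zfp36 and Socs3 without 42 °C replicate 5 (2.73%), Myc without 42 °C replicate 2 (2.73%), Ier3 and Zfp36 without 33 °C replicate 4 (2.40%), Klf2 without 33 °C replicate 3 (4.18%) and Egr3 without 33 °C replicate 5 (9.57%). Members correlated with the leukocyte sum numbered 0 without the 2 farthest libraries, 0 with centred values and 0 to 1 with 1 library left out. The cause was not tested, except that filters change how many features are tested.

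Of the 5 members at an unadjusted p under 0.05, Fos and Socs3 had the fewest reads, down to 12 and 14 in a 42 °C library, so depth limits their levels. Leaving out 33 °C replicate 3 moved the log2 ratio of Fos to -1.34, against -2.19 with it. With no filter, Myc, Ier3, Egr2 and Atf3 could also be fitted, and none passed an adjusted p of 0.05. The labels give no pairing, and the deviations of same-numbered libraries of the 2 groups had 5 correlations from -0.122 to -0.411, so no number went with its own best. With the replicate block, the 4 members at an unadjusted p under 0.05 were Egr3, Fos, Zfp36 and Socs3.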
